A study of Homo sapiens with 4 samples.

Results

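The genes of the H2A deubiquitinases BAP1, USP16, MYSM1 and USP21 and of the BAP1 partners ASXL1, ASXL2 and ASXL3 were followed in 2 lists of H2AK119ub peaks. These 7 genes were chosen by name, out of 19821 protein-coding genes on chromosomes 1 to 22 and X. Each was taken with its annotated span and 20 kb either side, which is called its window here. The 7 windows add up to 769 kb and held 16 of 32791 peaks in wild-type cells and 18 of 34390 in knockdown cells. The cells were H1, an established human embryonic stem cell line grown in mTeSR1 medium. They were either left untreated (wild type) or given a short hairpin RNA against YTHDF1, a cytoplasmic reader of m6A in messenger RNA. Each group had 1 library immunoprecipitated for H2AK119ub, histone H2A with a single ubiquitin on a lysine of its tail, and 1 input, and the inputs were not analysed here. No difference was tested, since 1 library per group gives no spread between replicates. The wild-type cells were untreated, so the effect of the hairpin as such and that of losing YTHDF1 cannot be told apart, and peaks show neither how far YTHDF1 RNA was reduced nor whether the cells kept their identity.

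H2AK119ub is written by Polycomb repressive complex 1 (PRC1), in which RING1 or RNF2 attaches a single ubiquitin to histone H2A, and it is dense over CpG-rich promoters of developmental genes in embryonic stem cells. It is removed by deubiquitinases. BAP1 works in a complex in which an ASXL protein binds and activates it, and USP16, MYSM1 and USP21 are separate enzymes that can also take ubiquitin off H2A.

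The windows differed widely in how much of the mark they carried. ASXL1 and USP21 lay in regions where peaks filled 27.7% to 54.7% of the window, BAP1 had several short peaks, ASXL2 and ASXL3 had a single peak each at the 5′ end, MYSM1 had a peak in the knockdown list alone, and USP16 had none. Of the 5 members whose strand the reference table gives, ASXL1, ASXL2, ASXL3 and USP21 had a peak within 2 kb of the 5′ end in both lists and USP16 in neither. Among 15813 protein-coding genes with a strand, 61.2% had such a peak in both lists, 5.06% in the wild type alone, 5.57% in the knockdown alone and 28.1% in neither. BAP1 and MYSM1 are not in the promoter table, so both of their ends were examined. BAP1 had a peak within 2 kb of its higher-numbered end in both lists, and MYSM1 at its higher-numbered end in the knockdown list.

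The 250 bases before the annotated 5′ end are shown for ASXL1, which had the widest peak at its 5′ end, ASXL2, which had the narrowest in the wild type, USP21, whose covered length differed most between the lists, and USP16, which had none. They come from RefSeq (GRCh38.p14, the same coordinates as hg38) and lie at chr20:32358081-32358330 on the plus strand, chr2:25878488-25878737 on the minus strand, chr1:161159250-161159499 on the plus strand and chr21:29024418-29024667 on the plus strand. Capitals mark each CG dinucleotide, the CpG.
ASXL1: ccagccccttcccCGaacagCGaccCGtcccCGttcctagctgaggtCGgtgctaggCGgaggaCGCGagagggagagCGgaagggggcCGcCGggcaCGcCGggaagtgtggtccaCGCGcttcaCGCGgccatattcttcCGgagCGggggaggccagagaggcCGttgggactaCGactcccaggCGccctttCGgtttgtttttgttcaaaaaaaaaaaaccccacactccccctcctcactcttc
ASXL2: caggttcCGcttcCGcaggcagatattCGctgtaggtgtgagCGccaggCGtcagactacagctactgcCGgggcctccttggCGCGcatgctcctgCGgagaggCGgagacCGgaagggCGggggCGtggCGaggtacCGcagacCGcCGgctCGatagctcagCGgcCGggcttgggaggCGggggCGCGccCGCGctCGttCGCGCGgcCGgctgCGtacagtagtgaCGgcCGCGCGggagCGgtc
USP21: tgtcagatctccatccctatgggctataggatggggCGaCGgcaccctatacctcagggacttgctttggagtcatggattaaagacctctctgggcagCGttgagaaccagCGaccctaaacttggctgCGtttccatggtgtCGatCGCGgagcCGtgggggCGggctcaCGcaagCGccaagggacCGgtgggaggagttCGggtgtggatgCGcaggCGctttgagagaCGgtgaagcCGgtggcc
USP16: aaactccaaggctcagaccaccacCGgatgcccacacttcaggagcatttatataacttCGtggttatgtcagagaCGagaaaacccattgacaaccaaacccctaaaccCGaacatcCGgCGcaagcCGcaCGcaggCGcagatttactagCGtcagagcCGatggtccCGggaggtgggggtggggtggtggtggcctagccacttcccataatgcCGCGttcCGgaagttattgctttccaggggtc

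CpG, which reads the same on both strands, occurred 23 times in the ASXL1 promoter, 36 times in that of ASXL2, 18 times in that of USP21 and 15 times in that of USP16. The ASXL3 promoter, not printed, held 34. Among 13792 promoters of protein-coding genes measured the same way, the median was 22 CpG for the 8543 with a peak near the 5′ end in both lists and 4 for the 3794 with a peak in neither. USP16 thus had more CpG than the upper quartile of the promoters without a peak, which was 13, and also more than the lower quartile of those with a peak in both lists, which was 14. ASXL2 and ASXL3 stood above the upper quartile of 29 of promoters with a peak in both lists, at percentiles 94.5 and 92.1 of all promoters. Their peaks were 2 to 5.2 kb wide, and ASXL1, with a CpG count near the median of promoters with a peak in both lists, had the widest. A CpG count describes these letters and is not a site of PRC1 binding.

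**Figure D1:**
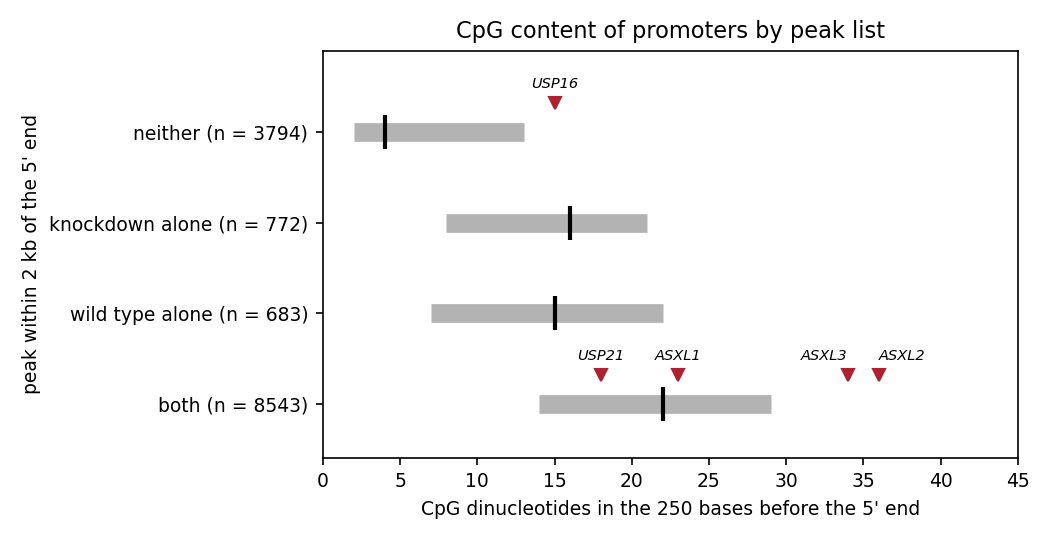
CpG dinucleotides in the 250 bases before the 5′ end (horizontal axis, count) of protein-coding promoters, grouped by the lists that had a peak within 2 kb. Grey bars run from the lower to the upper quartile, black ticks are medians, and triangles are the 5 members with a promoter sequence. USP16, at 15, lies above the grey bar of the promoters without a peak.

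How much of the 7 windows lay inside peaks was compared first. Wild-type peaks covered 107 kb and knockdown peaks 88.6 kb, a difference of -18.5 kb or -17.3%. The summed length over the windows of all protein-coding genes differed by -14%. ASXL1 held 59.9% of the members' wild-type length and 61.8% of the knockdown length, and USP21 held 23.6% and 14.4%. Without these 2 genes the other 5 had 17.6 kb in wild-type and 21 kb in knockdown cells, so the shorter total rested on ASXL1 and USP21. The sign also depended on how the lists were trimmed. In 1 setting only wild-type peaks were dropped, lowest scores first, until both lists covered equal lengths of the genome. Every knockdown peak was kept, so that step could only shorten the wild-type length. The members then had 87.5 kb in wild-type and 88.6 kb in knockdown cells. That is a difference of 1.22%, where all protein-coding genes had -4.22%. With the upper 50% by score kept in both lists the sign held. The members then had 74.3 and 53.9 kb, a difference of -27.4%, where all genes had -15%.

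Covered length was shorter in the knockdown list for BAP1, ASXL1 and USP21, longer for ASXL2, ASXL3 and MYSM1, and 0 in both for USP16. Of 16488 protein-coding genes with a peak in the window in either list, 64% had a shorter and 34.1% a longer covered length in the knockdown. A difference of at least 1.5-fold, where a gene covered in 1 list alone counts as past it, was seen for USP21 toward shorter and for ASXL2 and MYSM1 toward longer, among the 6 members with a peak. The background was 24.6% of genes at least 1.5-fold shorter and 13.5% at least 1.5-fold longer. With the wild-type list cut to the knockdown's covered length this balance turned, to 16.3% shorter and 22.1% longer. A window empty in both lists, as at USP16, was found for 16.8% of all protein-coding genes, a window with peaks in the knockdown alone, as at MYSM1, for 3.81%, and one with peaks in the wild type alone, which no member had, for 3.34%. With 7 genes these counts are too few to set the members apart from other genes.

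**Figure D2:**
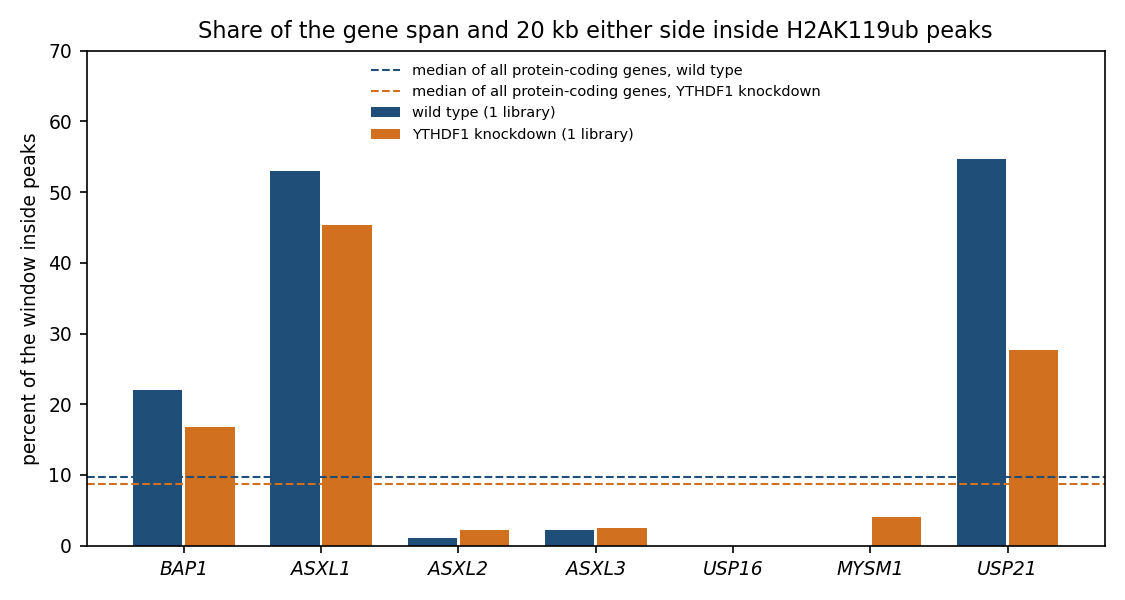
Percent of each window (gene span and 20 kb either side) inside H2AK119ub peaks, in 1 wild-type and 1 YTHDF1 knockdown library. Bars for ASXL1 stand at 53.1 and 45.3, those for USP21 at 54.7 and 27.7, and dashed lines give the medians of all protein-coding genes (9.67 and 8.77). There are no error bars because each group had 1 library.

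In order of the covered share of the window, the wild-type list ran from USP21 (54.7%) and ASXL1 (53.1%) over BAP1 (22%) to ASXL3 (2.25%) and ASXL2 (1.08%), with MYSM1 and USP16 at 0. In the knockdown list ASXL1 came first (45.3%), then USP21 (27.7%), BAP1 (16.7%), MYSM1 (3.99%), ASXL3 (2.44%), ASXL2 (2.27%) and USP16 at 0. The first 3 genes lay above the median of all protein-coding genes in both lists and the other 4 below it. Whether neighbours in either order differ could not be judged without replicates. ASXL2 and ASXL3 are long genes, of 145 and 173 kb, so a peak at one end fills little of their windows.

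BAP1, the catalytic subunit that cuts ubiquitin from H2A, lies on chromosome 3 (52401008 to 52410008). Its window had 10.8 kb in 3 wild-type peaks and 8.2 kb in 4 knockdown peaks. Of the span itself 2.01 kb was covered in wild-type and 1.8 kb in knockdown cells. That is 22.3% and 20% of the span, beside 22% and 16.7% of the whole window. In the wild type a peak of 5.6 kb (52408001 to 52413600, score 18.2) ran across the higher-numbered end of BAP1 into PHF7, a gene that starts 651 bp farther on. The knockdown peak there measured 2 kb (52410801 to 52412800, score 18.6), lay wholly inside the wild-type peak and stopped 0.793 kb short of BAP1. A second knockdown peak of 1.8 kb (52405201 to 52407000) lay inside BAP1, where the wild-type list had none, although the wild-type peak began 1 kb away.

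The list positions at BAP1 matched only in part. The lists had 4.4 kb of the window in common, which is 40.7% of the wild-type and 53.7% of the knockdown length. The peaks farther from BAP1 lay in its neighbours. DNAH1, an axonemal dynein gene 515 bp from BAP1, had 42.6% of its whole span covered in wild-type and 22.2% in knockdown cells. Most of that lay outside the window. The DNAH1 part inside the window went the other way, with 3.2 kb in wild-type and 4.4 kb in knockdown cells. PHF7 had 38.1% and 15.4% of its span covered, all of it inside the window. With bases inside other protein-coding genes left out, the BAP1 difference was -0.859 kb, against -2.6 kb for the whole window.

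ASXL1, a partner that activates BAP1, lies on chromosome 20 (32358331 to 32439319) and carried the widest domain at a 5′ end among the members. Its window had 64.2 kb in 6 wild-type peaks and 54.8 kb in 8 knockdown peaks. The peak over the 5′ end measured 31.8 kb in the wild type (32343601 to 32375400, score 229.7) and 23.2 kb in the knockdown (32348001 to 32371200, score 119.7). In the wild type it reached 14.7 kb upstream and 17.1 kb into the gene. In the knockdown it reached 10.3 kb upstream and 12.9 kb into the gene, so it was narrower on both sides and lay wholly inside the wild-type peak. By score the peaks stood at percentiles 95.9 and 94.5 of their own lists.

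Farther into ASXL1 the lists differed in small peaks of low score. The knockdown list alone had a peak of 5 kb that began 19.5 kb from the 5′ end (score 6.57) and another of 2.2 kb that began 48.7 kb from it (score 2.11, percentile 0.192 of its list). The wild-type list alone had a peak of 4.8 kb that began 69.7 kb from the 5′ end (score 3, percentile 2.32). Within the span, 26.6 kb was covered in wild-type and 24.1 kb in knockdown cells. The 2 kb on each side of the 5′ end were covered in full in both lists.

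Beyond the 3′ end of ASXL1 the wild-type list held a peak of 58.2 kb at the ceiling of the score (32441201 to 32499400), of which 56.3 kb lies inside NOL4L, a neighbour on the minus strand that ends 3.74 kb from ASXL1. The knockdown list had 4 separate peaks there, of 4.2, 2.2, 10.8 and 33.6 kb. They lay at 32439601 to 32443800, 32445001 to 32447200, 32448601 to 32459400 and 32460201 to 32493800, with short gaps between them. They covered 49.2 kb, or 84.5%, of the wild-type peak. Within the window of ASXL1 this peak contributed 18.1 kb in the wild type, where the knockdown pieces covered 15.5 kb. Over the whole ASXL1 window the lists had 46 kb in common, 71.6% of the wild-type and 83.9% of the knockdown length. The ASXL1 difference of -9.4 kb turned to 4.87 kb when the wild-type list was cut to equal length, since that step dropped low-scored wild-type peaks and kept every knockdown peak.

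ASXL2, a second BAP1 partner, lies on chromosome 2 (25733753 to 25878487, minus strand) and had a single peak in each list, over its 5′ end. The peak measured 2 kb in the wild type (25877601 to 25879600, score 31.8) and 4.2 kb in the knockdown (25877401 to 25881600, score 13.5). The wild-type peak lay wholly inside the knockdown peak. The extra length was mostly upstream, where the peak reached 1.11 kb in wild-type and 3.11 kb in knockdown cells, while it reached 0.886 and 1.09 kb into the gene. The wild-type peak ranked at percentile 70.5 of its list by score but at 6.14 by width, so it was narrow for its score. The ASXL2 knockdown peak stood at percentile 46.2 of its list by score, and among the upper 50% of peaks by score only the wild-type peak remained, which turned the difference of 2.2 kb to -2 kb.

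ASXL3, the third ASXL gene, lies on chromosome 18 (33578219 to 33751195) and also had a single peak over its 5′ end. It measured 4.8 kb in the wild type (33576401 to 33581200, score 49.4) and 5.2 kb in the knockdown (33575401 to 33580600, score 23.2). The 2 peaks had 4.2 kb in common. The knockdown peak was shifted upstream, reaching 2.82 kb before and 2.38 kb past the 5′ end, against 1.82 and 2.98 kb in the wild type. The shifts of 1 and 0.6 kb correspond to a few of the 200 bp steps on which peak borders were placed. No other peak lay within 260.8 kb of either end of ASXL3 in either list, so its peak stood alone.

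USP16, a deubiquitinase of H2A linked to mitosis and stem cell differentiation, lies on chromosome 21 (29024668 to 29054488) and had no peak in its window in either list. The nearest peak lay 20.7 kb below the gene in the wild type and 22.7 kb above it in the knockdown, in both cases just past the edge of the window. With 50 kb either side the knockdown had 0.6 kb more covered length than the wild type. Its protein-coding neighbours RWDD2B and CCT8, a chaperonin subunit gene, had no covered base in either list. An empty window means that no peak was called there, and the read depth behind that is unknown.

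MYSM1, a metalloprotease that removes ubiquitin from H2A and is needed in blood stem cells, lies on chromosome 1 (58654743 to 58700062). Its window was empty in the wild type and had a peak of 3.4 kb over the higher-numbered end of the gene in the knockdown (58699401 to 58702800). The score of that peak was 6.25, at percentile 15.8 of its list. The nearest wild-type peak lay 64.8 kb from it. The peak was lost when only the upper 50% by score were kept. Whether wild-type signal at this place fell slightly short of a call was not tested.

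USP21, a deubiquitinase that acts on H2A and on other substrates, lies on chromosome 1 (161159500 to 161165723) in a gene-dense region. Its window had 25.3 kb in 5 wild-type peaks and 12.8 kb in 3 knockdown peaks, a ratio of 0.506 and the largest difference among the members (-12.5 kb). The peak over the 5′ end differed in width by 0.2 kb, 1 step of the peak borders, with 4.8 kb in the wild type (161157401 to 161162200, score 20.6) and 4.6 kb in the knockdown (161157001 to 161161600, score 18.3) and 4.2 kb in common. The difference lay on both sides of it. Upstream of the 5′ end, 11.2 kb was covered in wild-type and 2.5 kb in knockdown cells, where the list had neither the peak of 7 kb that touches UFC1 (score 9.5) nor a peak of 5.8 kb at the window's edge (score 4.52). At the 3′ end the peak shared with PPOX, which begins 4 bp past USP21, measured 7.2 kb in the wild type (score 44) and 3.2 kb in the knockdown (score 31.3).

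The protein-coding neighbours of USP21 also had less covered length in the knockdown list. The covered bases of UFC1, PPOX and B4GALT3 all lie inside the USP21 window, and B4GALT3 lies within PPOX. Their values are therefore part of the USP21 difference and not a separate observation. UFC1, which encodes a conjugating enzyme of the ubiquitin-like protein UFM1, had 83.6% of its span covered in wild-type and 38% in knockdown cells, PPOX, an enzyme gene of haem synthesis, 64.2% and 38.1%, and B4GALT3, a galactosyltransferase gene, 44.6% and 35.6%. ADAMTS4, a gene of a matrix protease at the edge of the window, had 16.6% and 11.2%, all of it outside the window. Of the noncoding genes and pseudogenes that share a window with a member, a snoRNA gene upstream of USP21 alone had a covered base, in the wild type. Without bases inside other protein-coding genes the USP21 difference was -7.08 kb. It was 0.8 kb in the upper 50% of peaks by score, where 2 wild-type and 3 knockdown peaks were kept.

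**Figure D3:**
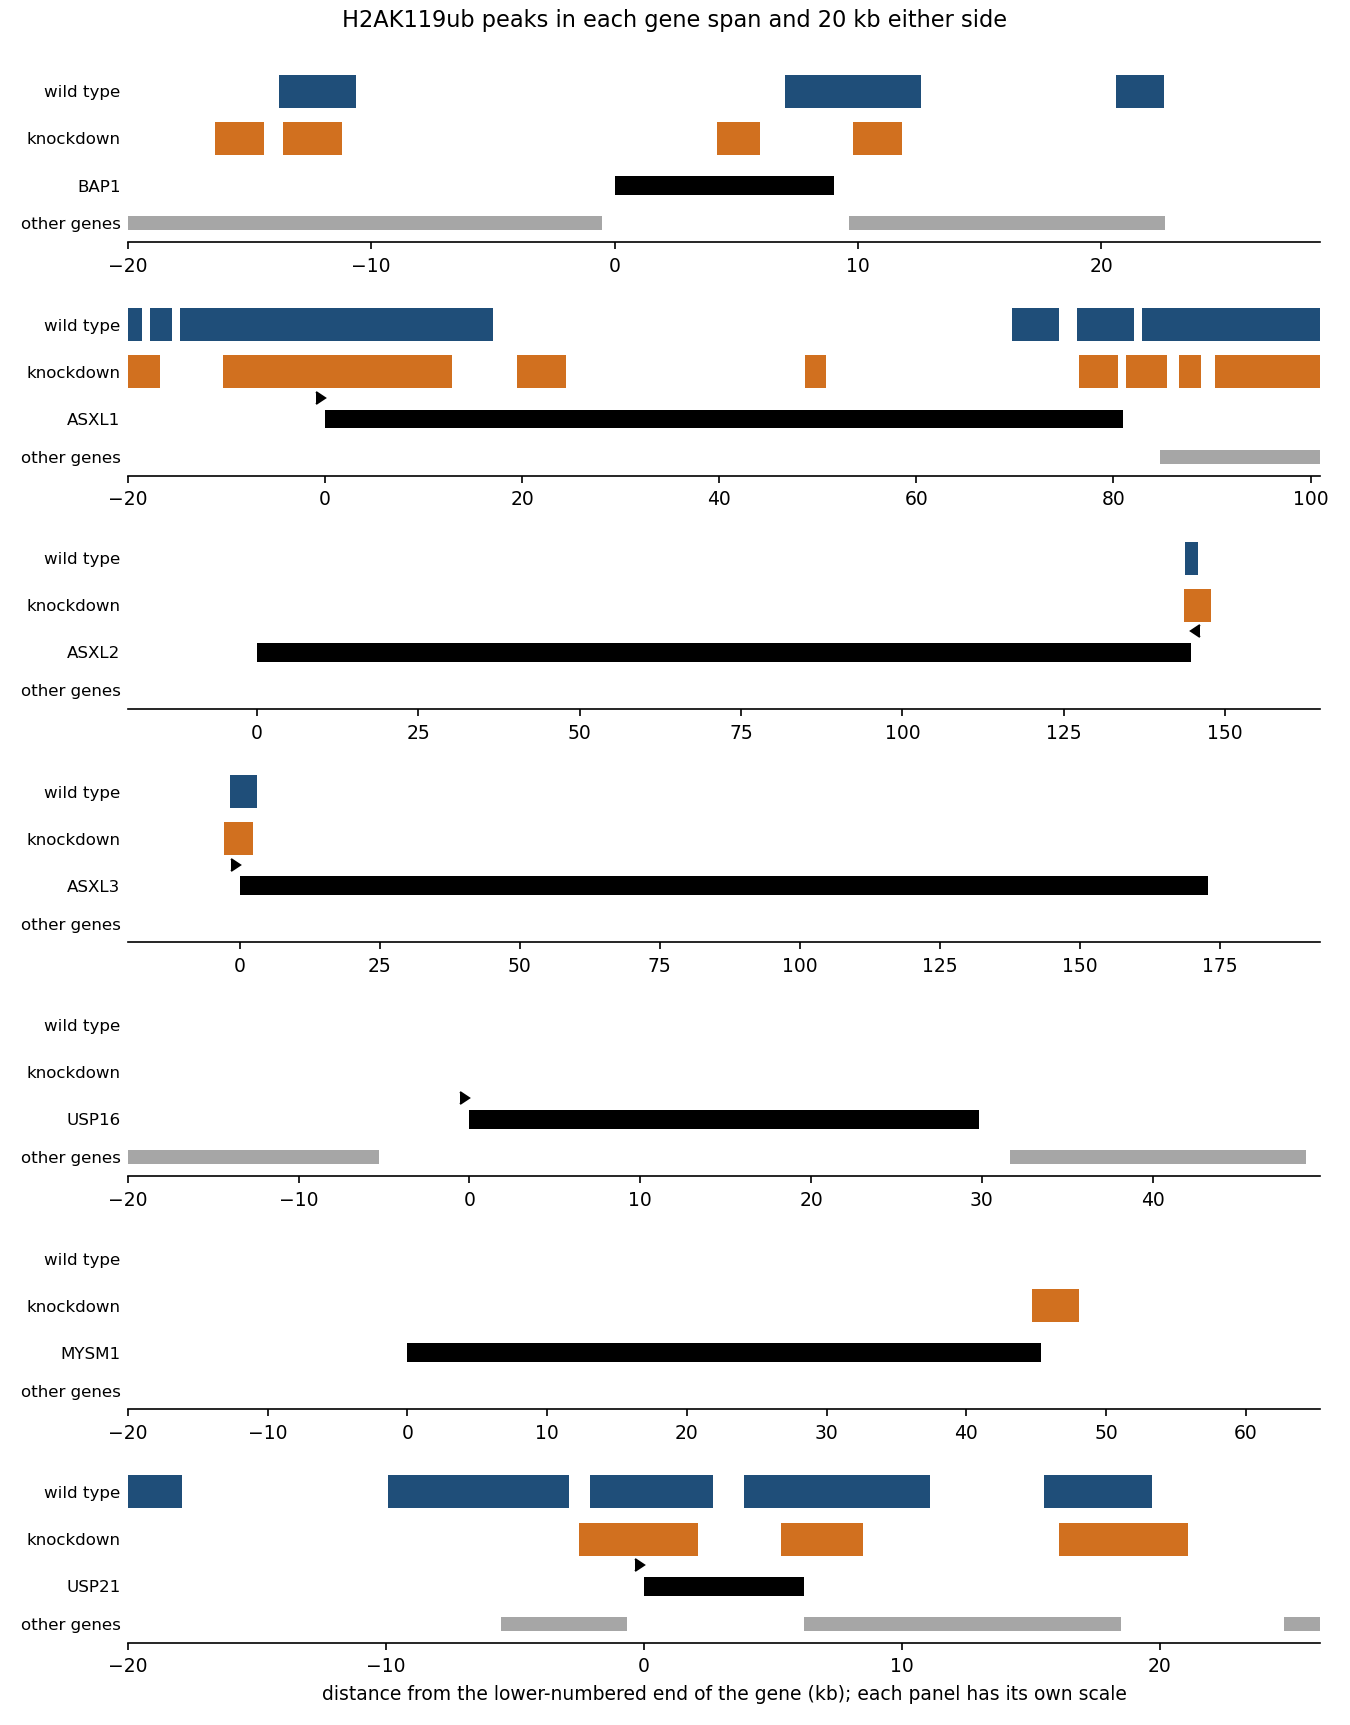
Peaks of the wild-type (blue) and knockdown (orange) lists in the window of each gene, by distance in kb from the lower-numbered end of the gene. Black bars are the 7 genes, grey bars other protein-coding genes, and arrowheads mark the 5′ end where the strand is given. The ASXL1 panel shows the peak of 31.8 kb above the narrower one of 23.2 kb, and USP16 has no peak.

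The second comparison asked whether the peaks lay in the same places. In the wild-type list 12 of the 16 peaks (75%) overlapped a knockdown peak by 1 bp or more, and in the knockdown list 13 of the 18 (72.2%) overlapped a wild-type peak. Over the whole lists the shares were 71.4% and 74.1%. Each gene with a peak near its 5′ end in both lists kept an overlapping pair there, and so did BAP1 at its higher-numbered end. The unshared peaks lay at BAP1, ASXL1, USP21 and MYSM1. In bases, the lists had 67.6 kb in common, which is 63.1% of the wild-type and 76.3% of the knockdown length.

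The unshared peaks had low scores in their own lists. The 4 in the wild type had scores from 3 to 9.93 and widths from 2 to 7 kb, and none was above percentile 30.2 of its list. The 5 in the knockdown had scores from 2.11 to 8.22 and widths from 1.8 to 5 kb, and none was above percentile 25.2. The shared peaks had median scores of 19.4 and 18.3 and included every peak in the upper 50% of its list, 7 in each. By median width, unshared and shared peaks measured 5.3 and 4.8 kb in the wild type and 2.2 and 4.2 kb in the knockdown. Scores of unshared peaks over the whole lists were not compared, so low scores cannot be called particular to these windows. The gap from an unshared peak to the nearest peak of the other list ran from 0.401 kb at USP21 to 64.8 kb at MYSM1. Median widths of all peaks in the windows were 4.8 kb in wild-type and 4.1 kb in knockdown cells, against 4.4 and 3.6 kb over the whole lists.

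**Figure D4:**
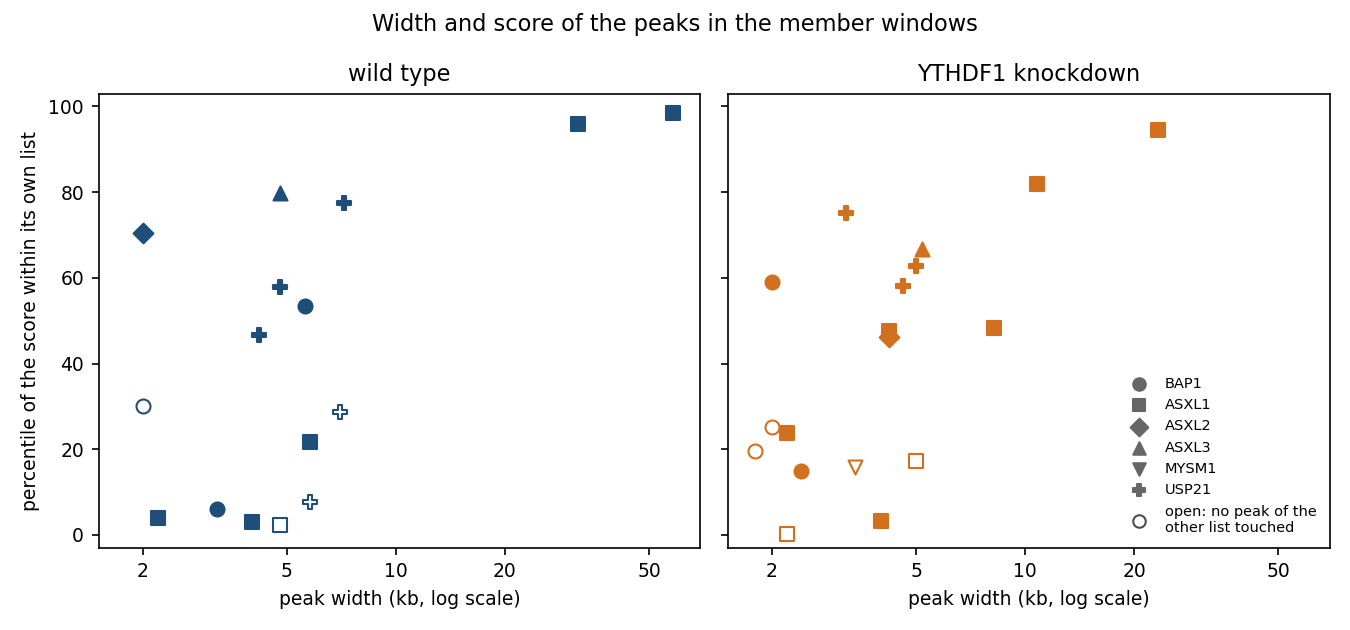
Width (horizontal axis, kb, log scale) and percentile of the score within its own list (vertical axis) of the 16 wild-type and 18 knockdown peaks in the windows. Symbols give the gene and open symbols are peaks that touched no peak of the other list. The open symbols lie at or below percentile 30.2 in both panels.

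The third comparison set the members beside the genes of proteins that work with or against them. The 32 PRC1 genes, which encode the complex that writes the mark, had a median of 30.9 kb in wild-type and 31.3 kb in knockdown cells, while the 7 members had 4.8 and 5.2 kb and all protein-coding genes 8.6 and 7.6 kb. The PRC1 medians and the other summaries of that list differ in sign. The median covered share of the window went from 34.2% to 23% (2.25% to 3.99% for the members, 9.67% to 8.77% for all genes). The median of the differences was -2.78 kb (0 for the members, -0.423 kb for all genes). The mean length differed by -10.3% (-17.3% for the members, -14% for all genes), so the members' median share and mean length also differ in sign. Of the PRC1 genes, 22 had a shorter and 10 a longer covered length in the knockdown, and 4 and 2 passed 1.5-fold. Of all protein-coding genes with a peak in the window, 64% had a shorter and 34.1% a longer length, and 24.6% and 13.5% passed 1.5-fold. AUTS2, a PRC1 component known from neurons, had the largest decrease in kb, from 84 to 66 kb. Its window is 1235 kb long, and the decrease did not pass 1.5-fold. CSNK2A1, a casein kinase subunit found in some PRC1 forms, had the largest increase in kb, from 9.6 to 20.2 kb. RING1 had 34.2 kb in wild-type and 35.2 kb in knockdown cells, and RNF2 5 and 7.4 kb.

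Among 11 genes listed as partners or associates of BAP1, 4 had a shorter and 6 a longer covered length, and 1 and 4 passed 1.5-fold. For this and the following lists, the shares past 1.5-fold over all genes with a peak were 24.6% shorter and 13.5% longer. UBE2O, a ubiquitin ligase that acts on BAP1, had the largest decrease (55.5 to 35.3 kb), and HCFC1, a chromatin cofactor bound by BAP1, the largest increase (9.24 to 19.8 kb). Among 14 further deubiquitinase genes, 9 had a shorter and 1 a longer covered length, 4 had no peak in either list, and 2 were at least 1.5-fold shorter. A window without a peak in either list was found for 16.8% of all protein-coding genes. USP22, the SAGA deubiquitinase, had the largest decrease (18.8 to 9.4 kb), and USP12 was the gene with a longer length (4 to 4.4 kb). Of the 12 genes of Polycomb repressive complex 2 (PRC2), which methylates histone H3, 9 had a shorter and 3 a longer covered length, and 3 and 1 passed 1.5-fold. PHF19 went from 45.7 to 23 kb, and MTF2 had 2.6 kb in the knockdown alone. Because the groups share these 2 libraries and have no replicates, no difference between the gene groups was tested.

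**Figure D5:**
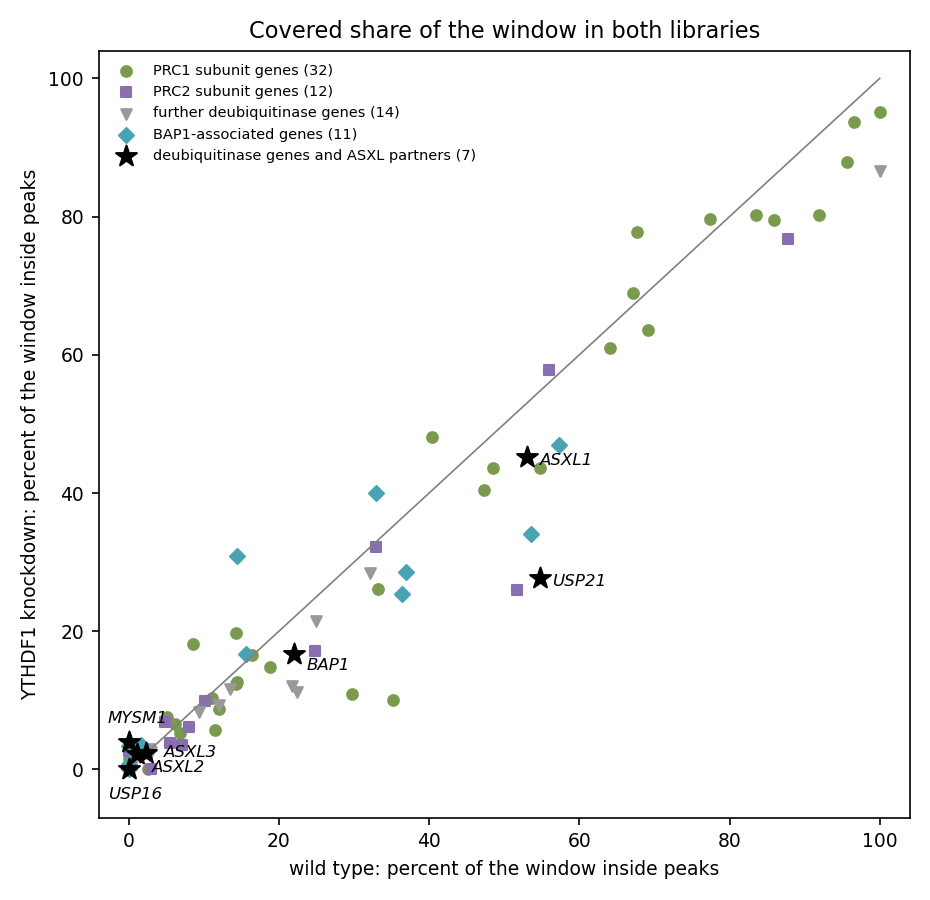
Percent of the window inside peaks in wild-type cells (horizontal axis) and knockdown cells (vertical axis) for 76 genes, with the diagonal of equal shares. Stars are the 7 members, and the other symbols are PRC1, PRC2, further deubiquitinase and BAP1-associated genes. USP21 (54.7 against 27.7) lies farthest below the diagonal among the stars.

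Genes with a similar layout of peaks were sought in 80 bins, 40 per list, over the span and both flanks of genes of like length. FBXW7 was most like ASXL3 (Pearson's r = 0.995), RALGPS2 most like ASXL2 (0.992) and FERRY3 most like MYSM1 (0.996). Each was the best match among many candidate genes, 1416 for ASXL3, 1645 for ASXL2 and 3421 for MYSM1. FERRY3 had no peak in wild-type and 3.8 kb in knockdown cells, and RALGPS2 had 2.4 and 4.8 kb. These high values rest on a single peak at a gene end. The best matches of members with several peaks were weaker, with 0.67 for USP21 and NKIRAS2, 0.665 for ASXL1 and ANKMY1 and 0.583 for BAP1 and PROK2. The correlations are across bins that share the same 2 libraries and describe only the layout.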

How the data were processed

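Peak lists of 2 H2AK119ub libraries were used. The submitters' processing notes name SICER 1.1, MACS2 2.1.0, Picard, SAMtools 1.3.1, Bowtie2 2.2.5 and Trimmomatic 0.35, with build hg38. The tools' roles and the inputs' use were not given in the sources used here. Each peak's deposited score is the authors' own value of unstated unit, from 2.002 to a ceiling of 1000, and was ranked only within its list. The median score of the whole list was 16.5 in wild-type and 14.8 in knockdown cells. Scores printed side by side are not a comparison of signal between the lists. Starts are multiples of 200 and ends lie 1 below one, so ends were read as inclusive. No read counts were used and depth is unknown.

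Peaks on chromosomes 1 to 22 and X were kept (32791 of 32798 wild-type and 34390 of 34393 knockdown). Gene spans came from RefSeq GRCh38.p14, matched by symbol (76 of 76), and strand from its promoter table. Of the protein-coding genes, 153 with scaffold positions were left out. Covered length counts the bases that lie in peaks, and a peak belongs to a window it shares at least 1 bp with. No test was run. Values were computed with Python 3.11.15 and pandas 2.3.3, and the coverage code was tested on simulated data.

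Groups came from the sample titles. The members, lists and windows were chosen with earlier results of these data known. Named genes were the 7 members, the genes with the largest decrease and increase of each other list, genes sharing a window (noncoding genes and pseudogenes as a group), and, for each member with a peak, the gene with the highest Pearson r over 80 bins (span 0.67 to 1.5 times as long, at least 1 Mb away). RING1 and RNF2 were added as the enzymes that write the mark.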

Additional observations from a re-analysis of the deposited data

How the results depend on the processing

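The difference in covered length over the 7 windows (-18.5 kb) became 1.07 kb with the wild-type list cut to the knockdown's covered length. It was -12.2 kb with 10 kb either side, -49.4 kb with 50 kb, -4.47 kb in the spans alone and, a choice made after seeing the data, -8.74 kb without bases inside other protein-coding genes. Leaving out 1 gene at a time gave -21.9 to -6 kb (-9.10 kb without ASXL1, -6 kb without USP21). The single differences that changed sign were BAP1 (0.6 kb) and ASXL1 (4.87 kb) with lists of equal length, ASXL2 (-2 kb) and USP21 (0.8 kb) in the upper 50% by score, ASXL2 with 50 kb either side (-5 kb) and ASXL3 in its span alone (-0.6 kb). The first 4 follow from the peaks dropped, and the last 2 from the window.

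Peaks in the windows numbered 7 in each list in the upper 50% by score, 8 and 10 in the spans alone, 27 in the wild type with 50 kb either side, and 10 in the wild type with lists of equal length. Shared peaks numbered 6 and 6 in the upper 50%, 7 and 6 in the spans alone, 20 in the knockdown with 50 kb, and 7 and 6 when 50% of both peaks had to overlap. With lists of equal length they numbered 8 and 10. For the whole lists, the share of overlapping peaks is given only for the 1 bp rule (71.4% and 74.1%). How it moves under the other settings is not given, so these counts do not set the members apart from other peaks. Genes with a peak within 2 kb of the 5′ end, or of either end for BAP1 and MYSM1, whose strand is not given, were 5 for wild-type and 6 for knockdown cells. The order turned to 5 and 4 in the upper 50% by score and stayed 5 and 6 under the other alternatives tried. BAP1 and MYSM1 thus had 2 ends at which to be counted, and MYSM1 entered the knockdown count only by this rule. For all protein-coding genes with a strand the 5′ end alone was examined, where 61.2% had a peak in both lists. That share is no background for the mixed rule, so these gene counts do not set the members apart from other genes. No replicate could be left out and no paired analysis was possible because each group had 1 library. Depth is unknown, and whether peaks of 1 list alone lay just under the threshold of the other was not tested.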
